A study of Mus musculus with 46 samples.

Results

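The 10 genes examined lie in one stretch of mouse chromosome 10 that runs from Iyd to Syne1: Iyd, Plekhg1, Mthfd1l, Akap12, Zbtb2, Rmnd1, Armt1, Ccdc170, Esr1 and Syne1. They were chosen by position around a measured difference, since Iyd was higher and Syne1 lower after Pbrm1 disruption in hSS2 tumors. The levels of the 10 genes in that comparison are therefore given as a description without a test. The count tables held 56980 genes for the hSS2 tumors and 56941 for the hSS1 tumors, and all 10 genes were in both. Levels were followed across 46 tumors in 6 genotype groups.

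All 46 tumors were mouse synovial sarcomas driven by a human fusion oncogene expressed from the Rosa26 locus after limb injection of TATCre, a cell-permeable Cre recombinase protein. In the hSS2 background the fusion was SS18::SSX2, and the groups were 13 control tumors, 8 with floxed Pbrm1, 8 with floxed Arid1a and 8 with floxed Arid1b. In the hSS1 background the fusion was SS18::SSX1, and the groups were 5 control tumors and 4 with floxed Pbrm1. The control tumors carried the fusion and TATCre exposure and, as far as their labels say, no floxed BAF subunit gene. Pbrm1 encodes a subunit particular to the PBAF complex, whereas Arid1a and Arid1b encode subunits of the canonical BAF complex. The mice were of a mixed strain, given by the study as CB57Bl/6-svJ, and of both sexes, and the labels gave no age for the single tumors. Injected TATCre is not restricted to a cell type, and RNA came from whole frozen tumor pieces with whatever stroma, vessels and muscle they held. In such bulk RNA, fewer cells of a type and less RNA per cell cannot be told apart. Total counts ran from 10137668 to 21294657 per tumor. In the hSS2 tumors with floxed Pbrm1 (below, Pbrm1-fl) the Pbrm1 level was 94.1 to 134 CPM (counts scaled by the library total) against 180 to 324 CPM in the controls. In the hSS1 Pbrm1-fl tumors it was 215, 253, 98.3 and 224 CPM against 278 to 356 CPM. The library labelled hSS2 control replicate 9 had 254 CPM of Arid1a, inside the range of the Arid1a-fl tumors (239 to 288 CPM) and below all other hSS2 controls (361 to 593 CPM), so each call in the Arid1a comparison, and the main Iyd and Syne1 values in hSS2, are given with and without it. In the Arid1b-fl group the Arid1b level ran from 111 to 348 CPM and overlapped the controls (230 to 678 CPM). Mouse numbers fell into 3 ranges that followed genotype in hSS2: all 8 Arid1a-fl mice were numbered under 1000, all 8 Arid1b-fl mice from 1000 to under 2000, and all 8 Pbrm1-fl mice 2000 and over.

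As background, the 10 genes have different jobs. Iyd encodes iodotyrosine deiodinase, a membrane enzyme of the thyroid that recovers iodide from iodotyrosines. Esr1 encodes estrogen receptor alpha, a ligand-activated transcription factor. Syne1 encodes nesprin-1, a very large protein of the outer nuclear membrane that binds SUN proteins and so ties the nucleus to the cytoskeleton, and shorter products of the same gene are known. Genes that neighbor each other on a chromosome can share regulatory elements or lie in separate domains, and bulk levels alone do not separate these arrangements.

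The genes were placed by the GENCODE annotation of GRCm38, the assembly also called mm10. Iyd lay on the forward strand at chr10:3540240-3554877 with 1623 exon bases. Syne1 lay at the other end on the reverse strand at chr10:5020917-5551482 with 40491 exon bases, the most of the 10. Between them, in order, were Plekhg1 (chr10:3740364-3967303), Mthfd1l (chr10:3973118-4167081), Akap12 (chr10:4266380-4359470), Zbtb2 (chr10:4367075-4388108), Rmnd1 (chr10:4401915-4432388), Armt1 (chr10:4432467-4455141), Ccdc170 (chr10:4482502-4562231) and Esr1 (chr10:4611593-5005614). Zbtb2, Rmnd1 and Syne1 were on the reverse strand and the other 7 genes on the forward strand. No exon base was shared with another gene on the same strand. Rmnd1 shared 186 exon bases with the antisense gene Gm16153, and since the strand setting of the counting was not given in the sources used here, a small part of its counts is uncertain.

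The 300 bases around the annotated starts of the genes at the ends, and of the head-to-head pair in the middle, show how differently these starts are built. RefSeq start regions for GRCm38.p6, from 250 bases before to 50 bases after each start, were found for 9 of the 10 genes, in 13 windows. CG dinucleotides, the sites of DNA methylation that are dense at many housekeeping promoters, are in capitals and the rest is in lower case. The Iyd window is chr10:3540024-3540323 on the forward strand, the Syne1 window is the most upstream of 3 for that gene, chr10:5550643-5550942 on the reverse strand, and the Rmnd1 window is chr10:4432339-4432638 on the reverse strand.
Iyd: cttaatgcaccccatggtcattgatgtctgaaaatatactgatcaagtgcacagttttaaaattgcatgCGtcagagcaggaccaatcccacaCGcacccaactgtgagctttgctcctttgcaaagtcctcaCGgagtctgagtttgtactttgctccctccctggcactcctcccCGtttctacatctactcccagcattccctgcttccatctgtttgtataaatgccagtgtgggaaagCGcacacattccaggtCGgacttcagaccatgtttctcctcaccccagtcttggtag
Syne1: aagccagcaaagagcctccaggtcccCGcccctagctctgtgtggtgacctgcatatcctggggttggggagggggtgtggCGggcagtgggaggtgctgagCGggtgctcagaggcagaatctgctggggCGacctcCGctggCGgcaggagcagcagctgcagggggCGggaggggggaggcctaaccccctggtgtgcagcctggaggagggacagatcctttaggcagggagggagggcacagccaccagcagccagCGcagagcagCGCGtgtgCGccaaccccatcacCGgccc
Rmnd1: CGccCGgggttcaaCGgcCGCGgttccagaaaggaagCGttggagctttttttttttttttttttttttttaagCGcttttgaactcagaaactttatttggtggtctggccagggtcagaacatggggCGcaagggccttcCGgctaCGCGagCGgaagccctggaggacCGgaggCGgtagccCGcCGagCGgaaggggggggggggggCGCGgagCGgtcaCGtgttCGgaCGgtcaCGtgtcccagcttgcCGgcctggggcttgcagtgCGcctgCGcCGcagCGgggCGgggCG

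Iyd had 6 CG dinucleotides in its window and the upstream Syne1 window had 12, against a median of 7 over all 32851 windows of this length (quartiles 3 and 20). The Rmnd1 window had 31, and 89.4% of all windows had fewer. The Armt1 start fell at base 34 of the same printed window, 217 bases from the Rmnd1 start by RefSeq, on the other strand. Zbtb2 had 33 CG dinucleotides, and the remaining 9 windows of Plekhg1, Mthfd1l, Armt1, Ccdc170, Esr1 and the downstream Syne1 starts had 3 to 28. The letters TATAAA on either strand were found in the Iyd window and in 1 downstream Syne1 window, and in 13.6% of all windows. The letters CCAAT on either strand were in the Iyd window and in 1 Esr1 window, and in 37.4% of all windows. The letters GGGCGG on either strand were in the windows of Mthfd1l, Zbtb2, Rmnd1 and upstream Syne1, and in 35.7% of all windows. The estrogen response element GGTCANNNTGACC, which reads the same on both strands, was in none of the 13 windows and in 0.07% of all windows. These matches describe letters in 300 bases and nothing more.

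In the hSS2 control tumors the 10 genes covered a wide range of levels. Per kilobase of exon, Syne1 was highest at 9.72 ± 2.08 CPM (SD, n = 13), followed by Plekhg1 at 7.64 ± 3.77 and Mthfd1l at 6.55 ± 2.03. Rmnd1 stood at 5.17 ± 0.68, Akap12 at 3.97 ± 1.74, Armt1 at 3.07 ± 0.65, Zbtb2 at 2.09 ± 0.37 and Esr1 at 1.80 ± 0.59 CPM per kilobase. Ccdc170 at 0.127 ± 0.081 and Iyd at 0.101 ± 0.103 CPM per kilobase were near the limit of detection. Neighbors in this order, apart from the step between Esr1 and Ccdc170, differed by less than the sum of their SDs. Iyd had 0 to 10 counts per control tumor, with 3 counts or fewer in 9 of 13.

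Disruption of Pbrm1 in hSS2 tumors, the comparison the genes were chosen on, was accompanied by more Iyd and less Syne1, and by smaller differences for the genes between them. Iyd in the 8 Pbrm1-fl tumors, in replicate order, was 12.3, 44.7, 187, 3.92, 2.49, 9.40, 15.6 and 0.102 CPM. In the 13 controls it ran from 0 through a median of 0.114 to 0.514 CPM. Thus 7 of 8 Pbrm1-fl tumors were above every control and replicate 8, with 2 counts, was not. The fitted log2 fold change was 7.60 (SE 1.02), and it was 6.15 without Pbrm1-fl replicate 3, which had the highest level. Against the 4 controls in the same range of mouse numbers it was 8.43, and without control replicate 9 it was 7.69.

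Syne1 in the same 8 tumors was 261, 98.9, 39.5, 79.7, 122, 128, 100 and 124 CPM. The controls ran from 281 through a median of 392.3 to 577 CPM, so the groups did not overlap. Of all genes past the filter on low counts, 0.139% had every Pbrm1-fl tumor below every control and 0.139% had every one above, and Syne1 was the only one of the 10 genes in either set. The log2 fold change was −1.73 (SE 0.23), between −2.03 and −1.61 when single tumors were left out, −1.71 without control replicate 9, and −1.73 against the controls of the same mouse number range. Pbrm1-fl replicate 1 had both the most Syne1 and the most Pbrm1 (134 CPM) of its group. The rest of the group did not follow that order. Replicate 6 had the least Pbrm1 (94.1 CPM) with 128 CPM of Syne1, and replicate 2 had 110 CPM of Pbrm1 with 98.9 CPM of Syne1. Over the 37 hSS2 tumors Spearman's rho with the Pbrm1 level was 0.32 for Syne1, 0.51 for Zbtb2 and −0.41 for Esr1. A relation between these levels was not tested.

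The levels of the remaining 8 genes overlapped between Pbrm1-fl and control tumors. Ccdc170, which encodes a coiled-coil protein tied to microtubules and the Golgi, had a log2 fold change of 1.17 (SE 0.41) at very low levels. Its level was 1.51, 1.71, 0.745, 1.63, 1.09, 1.83, 0.313 and 0.0511 CPM in the Pbrm1-fl tumors against 0.159 to 1.25 CPM in the controls. The log2 fold change was 1 or more in size for 3 of the 10 genes, Iyd, Ccdc170 and Syne1, where 10.1% of all tested genes reached that size. This count includes the genes the choice was made on. For Plekhg1, Akap12, Zbtb2, Rmnd1, Armt1, Esr1 and Mthfd1l the log2 fold changes were 0.40 (SE 0.33), −0.42 (SE 0.37), −0.20 (SE 0.11), 0.17 (SE 0.08), 0.13 (SE 0.10), 0.01 (SE 0.40) and −0.00 (SE 0.20).

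**Figure D1:**
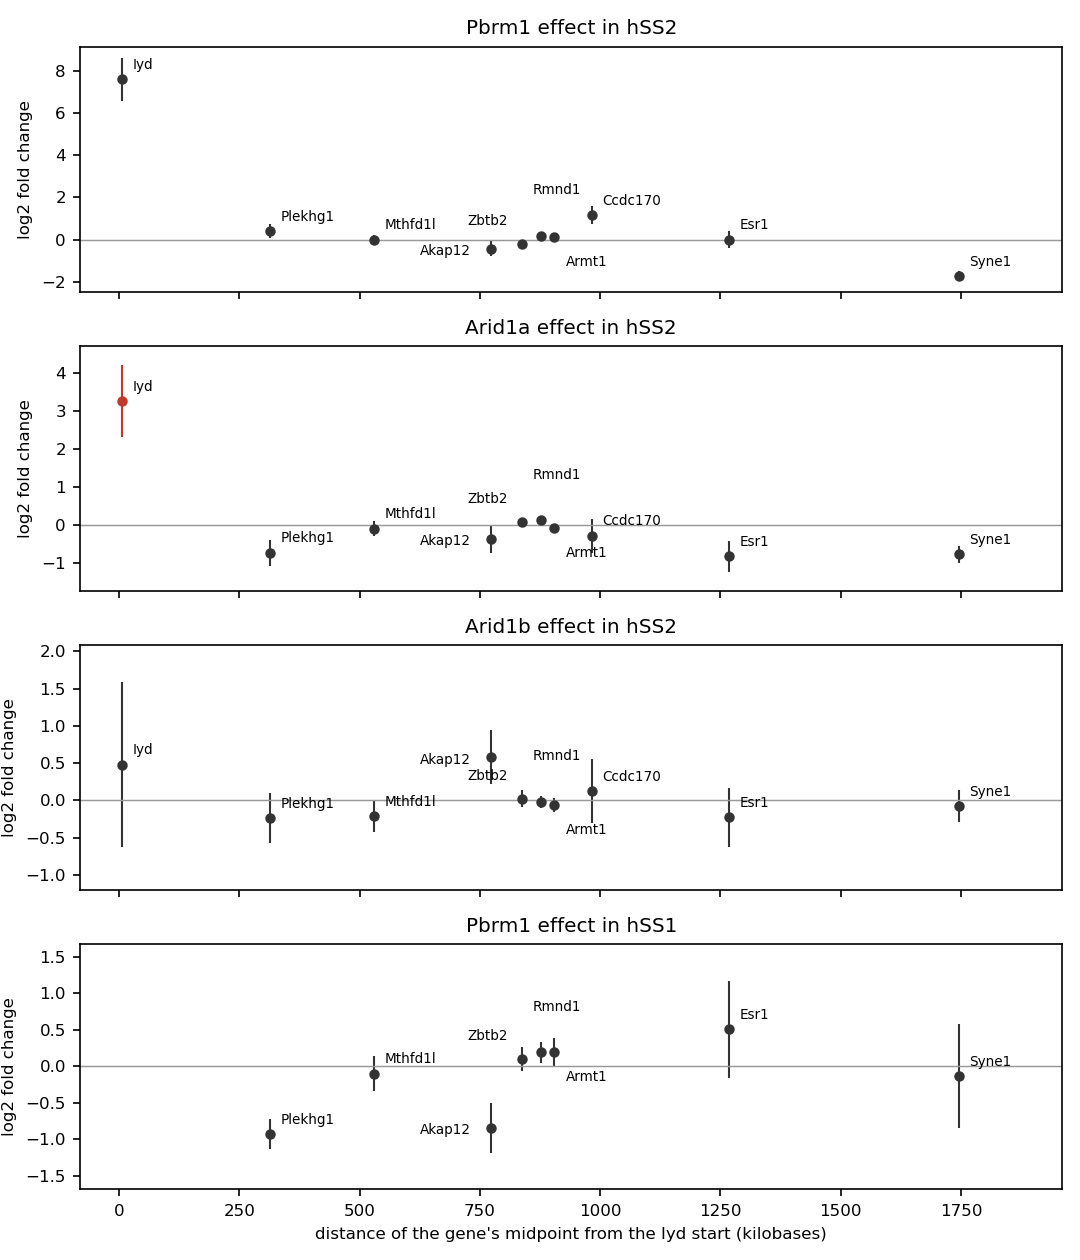
Log2 fold change (y axis, log2 units) of each gene against the distance of its midpoint from the Iyd start in kilobases (x axis), for 4 comparisons with control tumors. Points are fitted values, bars are ± 1 SE, and the red point is the only called value (adjusted p under 0.05), while the Pbrm1 effect in hSS2 is not tested and the y scales differ. In hSS2 Pbrm1-fl tumors 7 points lie between −0.42 and 0.40. Outside them lie Ccdc170 (1.17) and the 2 genes the choice was made on, Iyd (7.60) and Syne1 (−1.73).

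**Figure D2:**
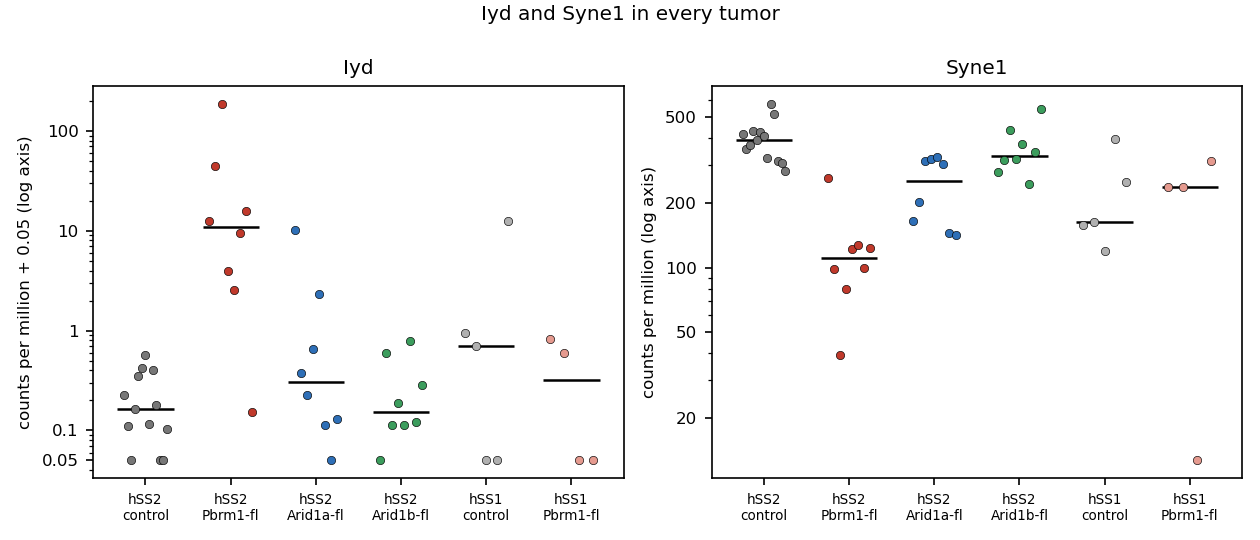
Iyd (left, CPM + 0.05) and Syne1 (right, CPM) in every tumor on log axes, by genotype group, with a bar at each group's median. In hSS2, 7 of the 8 Pbrm1-fl tumors have more Iyd than any hSS2 control, all 8 have less Syne1, and hSS1 Pbrm1-fl replicate 3 has the lowest Syne1 of all 46 tumors at 12.7 CPM.

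Syne1 is also expressed in skeletal muscle, and of the marker lists for other cells that of muscle had the widest range between tumors. The summed level of 16 muscle markers ran from 30.3 to 47906 CPM in hSS2 controls and from 12.01 to 17625 CPM in Pbrm1-fl tumors, with no marker at 0 throughout a group. The 16 markers had a median log2 fold change of −0.88, and all 16 were lower. In the 3 controls with the smallest muscle sums (30.3, 31.3 and 40.5 CPM) Syne1 was 577, 515 and 371 CPM, the first being control replicate 9. In the 4 Pbrm1-fl tumors with muscle sums of 12.01, 14.3, 29.9 and 33.01 CPM it was 122, 124, 100 and 39.5 CPM. Spearman's rho of Syne1 with the muscle sum over the 37 hSS2 tumors was 0.18, and that of Iyd was −0.26. Summed markers of synovial sarcoma (Tle1, Sox2, Bcl2, Krt8 and Krt18) were 229 to 304 CPM in Pbrm1-fl tumors and 269 to 518 CPM in controls, and rho with Syne1 was 0.48. The part of muscle and of these markers in the Syne1 difference was not tested.

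Iyd is known for its role in the thyroid, and the levels of 6 markers of thyroid follicles were described. Over all 37 hSS2 tumors thyroglobulin (Tg) stayed at or below 1.059 CPM and Pax8 at or below 0.235 CPM, and in the Pbrm1-fl group Pax8 had no count in any of 8 tumors. Slc5a5 and Tshr were higher, at up to 1.96 and 2.83 CPM in Pbrm1-fl tumors and up to 3.675 and 9.79 CPM in controls. Slc5a5 reached 11.09 CPM in the Arid1b-fl group. The 6 follicle markers together summed to 0.869 to 5.09 CPM in Pbrm1-fl tumors and 1.76 to 11.4 CPM in controls. Iyd in the Pbrm1-fl tumors had a median of 10.87 CPM and a highest level of 187 CPM. Any part of thyroid cells in the Iyd values was not tested.

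After disruption of Arid1a in hSS2 tumors Iyd was the only one of the 10 genes past the test, and that call gives no support of its own. Iyd entered the joint fit of the 4 hSS2 groups only through the Pbrm1-fl tumors, on which it was chosen, since it did not pass the filter on low counts in the other 3 groups. Ccdc170 also entered that fit only through the Pbrm1-fl tumors. Iyd in the 8 Arid1a-fl tumors was 10.1, 0.329, 0.178, 0.606, 2.29, 0.0634, 0 and 0.0789 CPM. Replicates 1, 4 and 5 were above every control (highest 0.514 CPM) and the other 5 were within the control range. Its log2 fold change was 3.27 (SE 0.95, edgeR quasi-likelihood test, adjusted p = 0.0477), in a comparison where 3.17% of 20083 genes were called. Without replicate 1 the log2 fold change was 1.51 and the adjusted p was 0.383. Over the 21 fits that left out 1 tumor of either group the call held in 5, and without control replicate 9 the adjusted p was 0.0547. The adjusted p was 0.0119 with DESeq2, 0.0762 without the filter on low counts and 0.0911 against the 5 controls in the same range of mouse numbers.

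Syne1 in the Arid1a-fl tumors was 165, 201, 314, 319, 328, 302, 144 and 142 CPM. All 8 were below the control median of 392.3 CPM and 4 were below the lowest control. This gave a log2 fold change of −0.76 (SE 0.22) with an edgeR adjusted p of 0.0524, which missed the threshold. The range over all alternatives was 0.0201, with DESeq2, to 0.137, without Arid1a-fl replicate 8. Without control replicate 9, which had the most Syne1 of the controls, the value was −0.70 and the adjusted p 0.0727. The muscle markers had a median log2 fold change of −1.42 in this comparison, and none of 16 was called by edgeR or DESeq2 or had an unadjusted p under 0.05. Their part in the Syne1 values was not tested.

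Esr1 and Plekhg1 were also lower in Arid1a-fl tumors without passing the test. The Esr1 level was 2.40, 8.87, 25.7, 8.08, 19.7, 21.6, 24.3 and 6.39 CPM against 10.2 to 33.5 CPM in the controls, so 4 of 8 tumors were below every control. Its log2 fold change was −0.81 (approximate 95% interval −1.62 to −0.01, edgeR adjusted p = 0.226). Plekhg1, which encodes a guanine nucleotide exchange factor, had a log2 fold change of −0.72 (interval −1.38 to −0.05, edgeR adjusted p = 0.201). For Mthfd1l, Akap12, Zbtb2, Rmnd1, Armt1 and Ccdc170 the log2 fold changes were between −0.35 and 0.13. By unadjusted p under 0.05 in edgeR, Iyd, Syne1 and Plekhg1 passed, as did 4621 of all 20083 genes, and DESeq2 called Iyd and Syne1 and 4.28% of the genes it tested. The limit given above for Iyd applies to these counts too. The same 13 control tumors entered the Pbrm1, Arid1a and Arid1b comparisons, so these are not independent of each other.

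Disruption of Arid1b in hSS2 tumors left all 10 genes without a call. Iyd was 0, 0.551, 0.0643, 0.138, 0.0638, 0.734, 0.0719 and 0.235 CPM, and replicates 2 and 6 were above the highest control. Syne1 was 278, 317, 434, 318, 376, 245, 343 and 547 CPM, and 2 of 8 tumors were below the lowest control. The log2 fold change of Syne1 was −0.07 (interval −0.50 to 0.35) and that of Iyd was 0.48 (interval −1.69 to 2.64), with edgeR adjusted p of 0.992 and 0.983. The largest for the remaining genes was that of Akap12, at 0.58 (interval −0.13 to 1.28, edgeR adjusted p = 0.831). None of the 10 passed an unadjusted p under 0.05 in edgeR, which 1250 of 20083 genes did, and none was called by DESeq2, which called 0.0443% of its genes. The share of all genes called in this comparison was 0.0548%.

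The Arid1a-fl and Arid1b-fl tumors were also compared with each other, without the control tumors, which asks whether the responses differed. None of the 10 genes was called by edgeR or DESeq2, where edgeR called 0.0996% of all genes. At an unadjusted p under 0.05 in edgeR there were 3 genes, Iyd, Syne1 and Akap12, and 2517 of all 20083 genes. Iyd was in this fit only through the Pbrm1-fl tumors it was chosen on, so its value here gives no support of its own. DESeq2 called 0.549% of its genes. The log2 difference, Arid1a-fl minus Arid1b-fl, was 2.79 for Iyd (interval 0.65 to 4.94, edgeR adjusted p = 0.284) and 1.04 without Arid1a-fl replicate 1. It was −0.68 for Syne1 (interval −1.16 to −0.20, edgeR adjusted p = 0.254), with all 8 Arid1a-fl tumors below the Arid1b-fl median of 330 CPM. Akap12, which encodes a scaffold that holds protein kinase A, differed by −0.93 (interval −1.73 to −0.13, edgeR adjusted p = 0.352). Genotype and mouse number range cannot be told apart in this comparison, since the groups share no range.

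The hSS1 tumors were not used in choosing the genes, and there Pbrm1 disruption left none of the 8 genes past the filter with a call. Over all genes, 1 of 17786 genes was called by edgeR (0.00562%). Iyd and Ccdc170 did not pass the filter on low counts. Iyd was 0.780, 0.545, 0 and 0 CPM in the hSS1 Pbrm1-fl tumors and 0.891, 0.652, 0, 0 and 12.6 CPM in the hSS1 controls. The highest hSS1 level was thus in a control, replicate 5, and the groups overlapped. Ccdc170 was 0 to 0.535 CPM in the Pbrm1-fl tumors and 0.0917 to 0.980 CPM in the controls.

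Syne1 in the 4 hSS1 Pbrm1-fl tumors was 238, 237, 12.7 and 314 CPM against 158, 162, 119, 394 and 249 CPM in the controls. Replicate 3 stood below all 5 controls and the other 3 were within their range. By the fit it differed by −0.13 log2 units (interval −1.53 to 1.26, edgeR adjusted p = 0.944) with all tumors and 0.27 (adjusted p = 0.753) without replicate 3. The difference between the backgrounds was not tested for Syne1. Replicate 3 was also the tumor with the lowest Pbrm1 level of its group (98.3 CPM, against 215 to 253 CPM in the other 3), close to the 94.1 to 134 CPM of the hSS2 Pbrm1-fl tumors. Iyd had no count in replicate 3. The muscle sum of replicate 3 was 9.67 CPM. In hSS1 control replicates 4, 5 and 1, with muscle sums of 14.2, 21.09 and 39.12 CPM, Syne1 was 394, 249 and 158 CPM. The synovial sarcoma markers of replicate 3 summed to 259 CPM against 504 to 550 CPM in the other 3 Pbrm1-fl tumors. Fibroblast markers summed to 3033 to 14353 CPM in hSS1 Pbrm1-fl tumors and 97.8 to 2434 CPM in the controls, and 6 of the 7 measured muscle markers had a log2 fold change of −1 or less. The part of these cells in the hSS1 values, and any relation between the Pbrm1 and Syne1 levels, was not tested.

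**Figure D3:**
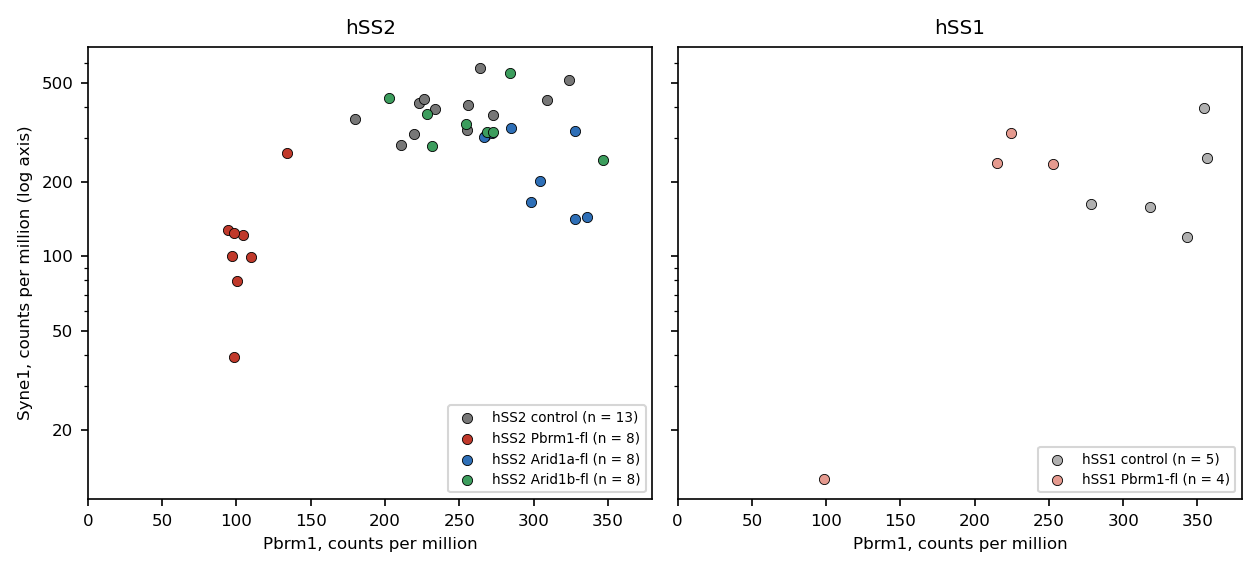
Syne1 level (y axis, CPM, log axis) against Pbrm1 level (x axis, CPM) in each tumor, hSS2 on the left and hSS1 on the right, colored by group. The 8 hSS2 Pbrm1-fl tumors lie at 94.1 to 134 CPM of Pbrm1 and 39.5 to 261 CPM of Syne1, and hSS1 Pbrm1-fl replicate 3 lies at 98.3 and 12.7 CPM.

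Plekhg1 was the only one of the 8 genes past the filter whose groups did not overlap in hSS1. The share of all hSS1 genes without overlap was not computed, so this separation is a description only. Gm16074, inside the stretch, and Ust, further along chromosome 10, also had no overlap in hSS1, both with higher levels in Pbrm1-fl tumors, and neither was called by edgeR. Its level was 43.1, 50.7, 28.7 and 41.3 CPM in the Pbrm1-fl tumors against 78.3, 64.1, 109, 66.7 and 71.5 CPM in the controls, and the groups did not overlap. Its log2 fold change was −0.93 (interval −1.33 to −0.53) with an edgeR adjusted p of 0.121, over the threshold, while DESeq2 gave an adjusted p of 0.00315. Against the 3 controls of the same mouse number range the edgeR adjusted p was 0.242. In hSS2 the value was 0.40 (SE 0.33) and the groups overlapped, and the difference between the backgrounds was not tested. The 10 endothelial markers had a median log2 fold change of −0.34 in hSS1, none called by edgeR or DESeq2, and rho of Plekhg1 with their sum over the 37 hSS2 tumors was 0.44. The part of endothelium in the Plekhg1 values was not tested.

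Akap12 ran from 10.6 to 15.98 CPM in the hSS1 Pbrm1-fl tumors and from 10.1 to 35.99 CPM in the controls, a log2 fold change of −0.84 (interval −1.51 to −0.17, edgeR adjusted p = 0.257). Control replicate 5 was below all 4 Pbrm1-fl tumors. Esr1 had a log2 fold change of 0.50 (interval −0.80 to 1.81), and Mthfd1l, Zbtb2, Rmnd1 and Armt1 had values between −0.10 and 0.19. Unadjusted p under 0.05 was reached by Plekhg1 and Akap12, and by 3059 of all 17786 genes, and DESeq2 called Plekhg1 and 3.66% of its genes.

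The order of the groups by level was described for the genes at both ends. Mean Syne1 was highest in hSS2 controls (394 ± 84.3 CPM, SD, n = 13) and Arid1b-fl tumors (357 ± 96.0, n = 8), then Arid1a-fl (239 ± 83.8, n = 8), hSS1 controls (217 ± 110, n = 5), hSS1 Pbrm1-fl (200 ± 130, n = 4) and hSS2 Pbrm1-fl (119 ± 64.2, n = 8). Each neighboring pair in that order lay within the sum of its SDs. Median Iyd ran from 0.105 CPM in Arid1b-fl tumors and 0.114 in hSS2 controls through 0.253 in Arid1a-fl, 0.272 in hSS1 Pbrm1-fl and 0.652 in hSS1 controls to 10.9 in hSS2 Pbrm1-fl tumors. The ranges of the first 5 groups overlapped one another. The hSS1 and hSS2 libraries were counted in separate tables, so levels across them are set side by side only.

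Zbtb2, Rmnd1 and Armt1 were the steady genes of the stretch, while Mthfd1l varied more between single tumors. Mthfd1l encodes a mitochondrial enzyme of folate metabolism that releases formate, Zbtb2 a zinc finger transcription factor, Rmnd1 a protein needed for mitochondrial translation, and Armt1 a protein carboxyl methyltransferase. Group means of Zbtb2 ran from 13.7 to 19.98 CPM, of Rmnd1 from 28.96 to 42.2 CPM and of Armt1 from 23.3 to 30.4 CPM over the 6 groups. Mean Mthfd1l ran from 23.7 to 37.6 CPM, with single tumors at 54.2 CPM (Arid1a-fl replicate 1) and 52.6 CPM (hSS1 Pbrm1-fl replicate 3). Its lowest level in an hSS2 tumor was 10.9 CPM, in the Arid1b-fl group. Esr1 varied more than its group means, from 2.40 to 43 CPM among the hSS2 tumors. Its rho over the 37 hSS2 tumors was 0.54 with the summed fibroblast markers and 0.47 with the muscle sum, and the part of those cells in its level was not tested.

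**Figure D4:**
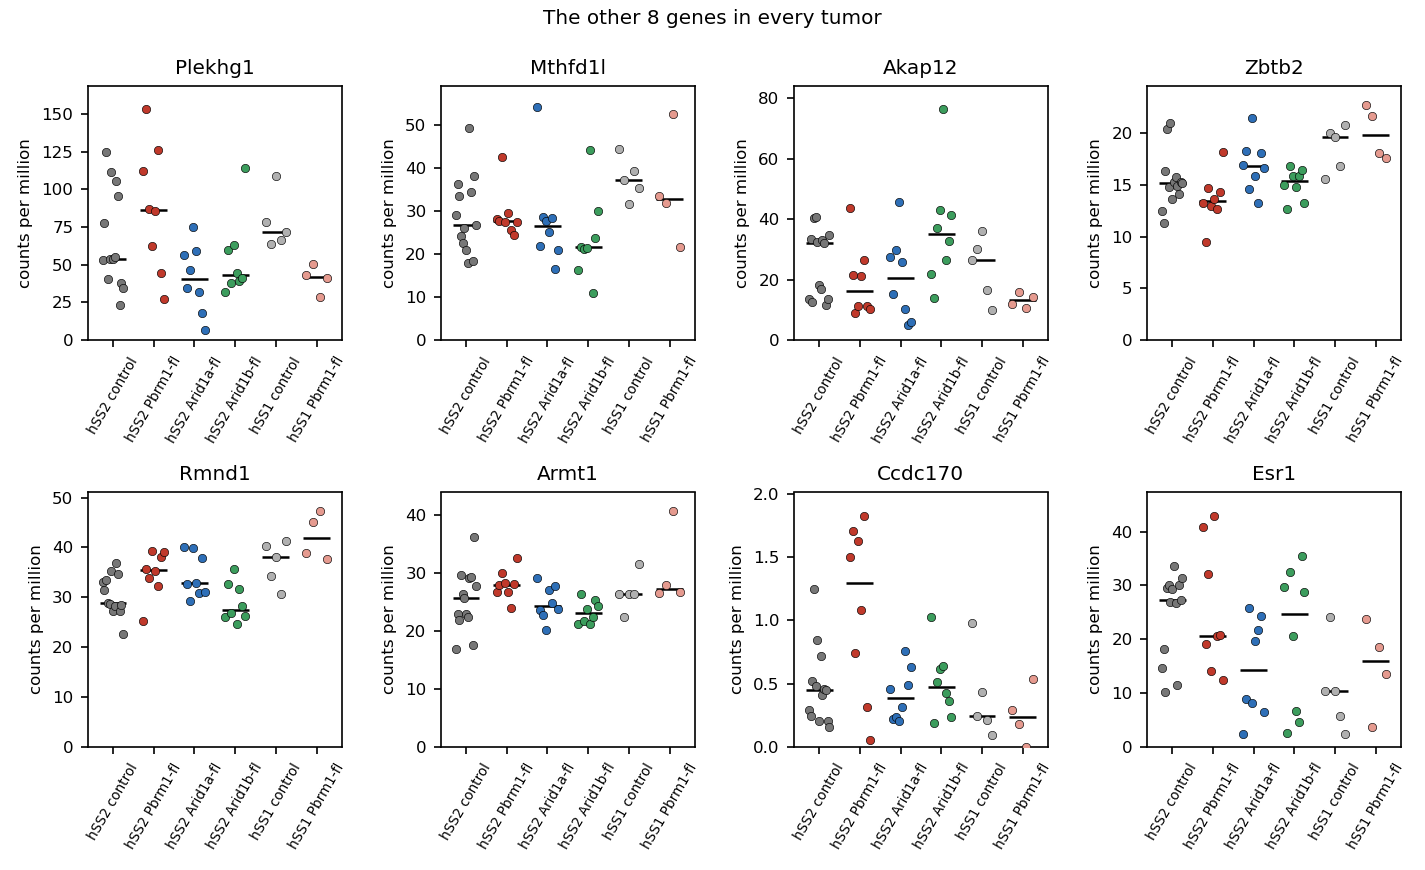
Level in CPM (y axes, starting at 0) of Plekhg1, Mthfd1l, Akap12, Zbtb2, Rmnd1, Armt1, Ccdc170 and Esr1 in every tumor, by genotype group (x axes), with a bar at each group's median. Each floxed group overlaps the controls of its own fusion background in every panel, except for Plekhg1 in hSS1, where the 4 Pbrm1-fl tumors (28.7 to 50.7 CPM) are below the 5 controls (64.1 to 109 CPM).

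Levels of neighbors on the map were only weakly related across tumors. Over the 37 hSS2 tumors the median Spearman's rho of the 9 adjacent pairs was 0.20 (range 0.04 to 0.56) and that of the 36 other pairs was 0.04 (range −0.48 to 0.56). All 9 adjacent pairs and 19 of the 36 others were positive, and within the 13 controls 6 and 29 were. These tumors include the Pbrm1-fl group, whose Iyd and Syne1 levels defined the choice. Within the 13 controls alone the medians were 0.09 and 0.22, so the order turned. Iyd and Plekhg1, with starts 200 kilobases apart, had rho 0.56 (Pearson r 0.47), and Akap12 and Syne1, 754 kilobases apart, had rho 0.56 (r 0.55). The head-to-head pair Rmnd1 and Armt1, whose window is printed above, had rho 0.38 (r 0.27). Iyd and Syne1 had rho −0.35 (r −0.69) over all 37 tumors, 0.71 within the 13 controls, where Iyd had at most 10 counts, and −0.45 within the 8 Pbrm1-fl tumors. The points share library depth and tissue makeup.

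**Figure D5:**
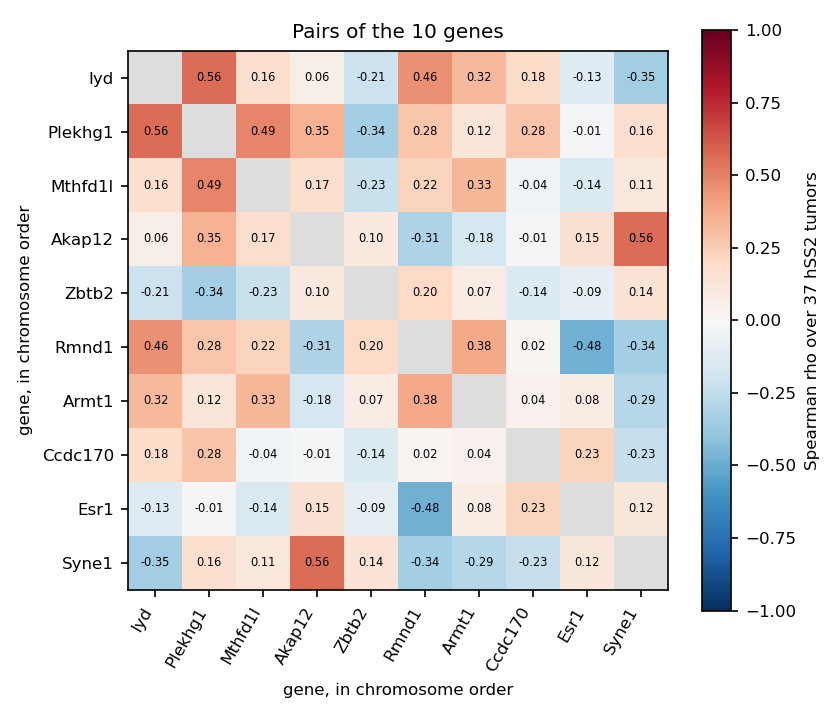
Spearman's rho (color, from −1 to 1, and printed numbers) between each pair of the 10 genes over the 37 hSS2 tumors, with genes in chromosome order on both axes. The highest values are Iyd with Plekhg1 and Akap12 with Syne1 (0.56 each), and the lowest is Rmnd1 with Esr1 (−0.48).

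The 5 genes most like Iyd over the 37 hSS2 tumors, by Spearman's rho of log2 CPM, were Rundc3a (0.74), Scrt1 (0.73), Zdhhc12 (0.71), Nt5c (0.71) and Ydjc (0.70), and none was on chromosome 10. Without the 8 Pbrm1-fl tumors their rho was 0.51 to 0.64, and within the 13 controls it was 0.14 to 0.67. These values rest on few reads, since Iyd had 3 counts or fewer in 9 of 13 controls, 4 of 8 Arid1a-fl and 5 of 8 Arid1b-fl tumors. In hSS1 it had no count in 2 of 5 controls and 2 of 4 Pbrm1-fl tumors. In the 9 hSS1 tumors rho with Iyd was 0.43 for Rundc3a and between −0.15 and −0.02 for the other 4. The 5 most like Syne1 were Frem1 (0.82), Sspn (0.82), D630039A03Rik (0.77), Hacd4 (0.76) and Slc12a8 (0.76), again none on chromosome 10, with rho of 0.56 to 0.69 without the Pbrm1-fl tumors. Within the 13 controls their rho with Syne1 was 0.23 to 0.51. Over the 9 hSS1 tumors it was 0.58 for Sspn, 0.53 for Hacd4, 0.23 for Frem1, 0.07 for Slc12a8 and −0.30 for D630039A03Rik. Sspn, which encodes sarcospan of the dystrophin complex, was 4.44 CPM in hSS1 Pbrm1-fl at its lowest and 54.02 CPM at its highest.

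The genes next to either end were also described. Iyd and Syne1 were picked for their differences after Pbrm1 disruption in hSS2, so smaller differences beside them follow from the choice. Ppp1r14c, the next protein-coding gene before Iyd (chr10:3366057-3464975), had a log2 fold change of −0.36 (SE 0.72) in hSS2 Pbrm1-fl tumors, and Myct1, the next after Syne1 (chr10:5593775-5606904), had 0.03 (SE 0.36). Up to position 5.6 Mb of chromosome 10 there were 24 annotated genes beside the 10, of which 5 passed the filter in hSS2 and 4 in hSS1. Their log2 fold changes after Pbrm1 disruption in hSS2 were all under 1 in size, where 10.1% of all genes reached that size. No such gene was called by edgeR or DESeq2, or had an unadjusted p under 0.05 in edgeR, in the other 4 comparisons. Between 5.6 and 10 Mb, 27 of 63 genes passed the filter in hSS2. In Pbrm1-fl tumors 2 of them, Lrp11 (1.497, SE 0.30) and Rgs17 (1.25, SE 0.66), had a log2 fold change of 1 or more in size. Among all genes 10.1% reached that size. Rgs17 passed the filter in hSS2 only through the Pbrm1-fl tumors. None of the 27 had groups that did not overlap. In the other 4 comparisons edgeR called none of them, with 5, 0, 2 and 3 at an unadjusted p under 0.05 for Arid1a, Arid1b, Arid1a against Arid1b and hSS1 Pbrm1. Over all genes those counts were 4621, 1250 and 2517 of 20083 and 3059 of 17786, and the counts of the lists that follow are to be read against them. DESeq2 called 1, 0, 0 and 1 of them, and 4.28%, 0.0443%, 0.549% and 3.66% of all genes.

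Partners of Syne1 at the nuclear envelope were described too. Syne1 was picked for its difference in hSS2 Pbrm1-fl tumors, so smaller values among its partners there follow from the choice. The list held 13 genes of the LINC complex and nuclear lamina, among them the other nesprins Syne2, Syne3 and Syne4 and their partners Sun1 and Sun2. None had a log2 fold change of 1 or more in size in hSS2 Pbrm1-fl tumors, where 10.1% of all genes did. Their median was −0.02, with −0.00 over all genes. Syne2 had −0.14 (SE 0.22), Sun1 0.09 (SE 0.07) and Sun2 −0.01 (SE 0.17). The most negative was Syne4, at −0.76 (SE 0.35). In the other 4 comparisons edgeR called none of the 13, with 2, 2, 1 and 4 at an unadjusted p under 0.05, and DESeq2 called 1, Lmnb1 in hSS1. The largest value among them was that of Syne4 in Arid1b-fl tumors, at 1.22 (SE 0.33, edgeR adjusted p = 0.343).

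Genes of thyroid hormone production and use, the pathway of Iyd, were measured for 11 of 19 listed genes in hSS2. In Pbrm1-fl tumors 6 of the 11 had positive log2 fold changes and 5 negative ones, with a median of 0.19. Of the 11, 4 had a log2 fold change of 1 or more in size, where 10.1% of all genes did. Of these 3 were upward and 1 was downward, at −1.13. Foxe1, a transcription factor of the thyroid, had 2.88 (SE 0.58), with 1.23 to 14.4 CPM against 0.0642 to 1.71 CPM in controls and 7 of 8 tumors above every control. Duox2, an enzyme that makes hydrogen peroxide for hormone synthesis, had 1.47 (SE 0.52), and Dio3, which inactivates thyroid hormone, 1.203 (SE 0.34). In Arid1a-fl tumors 1 of 11 fell, Tshr, the thyrotropin receptor (log2 fold change −2.38, SE 0.64, edgeR adjusted p = 0.0399, and 0.0496 without control replicate 9), and none rose, where 3.17% of all genes were called. No gene of the list was called in the other 3 comparisons, where 3, 2 and 2 had an unadjusted p under 0.05 in edgeR and DESeq2 called none.

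Of 19 genes tied to estrogen receptor action, 16 passed the filter. In hSS2 Pbrm1-fl tumors Igfbp4 had a log2 fold change of 2.03 (SE 0.45), Foxa1, a pioneer factor for the receptor, 1.13 (SE 0.67), and Gata3 1.01 (SE 0.64), while Esr1 itself had 0.01 (SE 0.40). These 3 of 16 were the ones of 1 or more in size, where 10.1% of all genes reached that size. In Arid1a-fl tumors 2 of 16 passed the test, both downward, where 3.17% of all genes were called: Foxa1 (log2 fold change −2.69, SE 0.78, edgeR adjusted p = 0.0487) and the coactivator Ncoa2 (−0.27, SE 0.07, edgeR adjusted p = 0.0387). Without control replicate 9 the edgeR adjusted p was 0.0547 for Foxa1 and 0.0535 for Ncoa2, over the threshold. In the other 3 comparisons edgeR called none, with 0, 4 and 3 at an unadjusted p under 0.05, and DESeq2 called 0, 2 and 0. Summed epithelial markers, which include Krt8 and Krt18, ran from 3.53 to 80.8 CPM in Arid1a-fl tumors and 13.1 to 159 CPM in controls, and their part in the Foxa1 value was not tested.

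The lists for the pathways of Mthfd1l and Akap12 held 1 call each, both in Arid1a-fl tumors, where 3.17% of all genes were called. Of 15 genes of mitochondrial and one-carbon folate metabolism, the pathway of Mthfd1l, Shmt2 had a log2 fold change of 0.61 (SE 0.16, edgeR adjusted p = 0.0396, and 0.0511 without control replicate 9), and 7 of 8 tumors were above every control. Of 15 measured A-kinase anchors and protein kinase A subunits, the group of Akap12, Akap7 had −0.53 (SE 0.15, edgeR adjusted p = 0.0430, and 0.0583 without control replicate 9). In the other 3 comparisons edgeR called none of either list. For folate metabolism 0, 3 and 5 genes had an unadjusted p under 0.05 and DESeq2 called 0, 0 and 1, and for the A-kinase anchors the counts were 1, 2 and 4, with 0, 0 and 3 called by DESeq2. The lowest value was that of Akap6, an anchor of striated muscle, in hSS1 Pbrm1-fl tumors (−6.01, SE 1.52, edgeR adjusted p = 0.138), where all 4 tumors were below every control. In the same list 1 gene had all 4 tumors above every control. How many of all hSS1 genes had such a separation was not computed. In hSS2 Pbrm1-fl tumors 10 of the 15 folate genes had positive log2 fold changes and 5 negative ones, with a median of 0.13 and a highest value of 0.57. The 3 of 1 or more in size were Aldh1l2, Aldh1l1 and Mthfd2l, at −1.21 (SE 0.58), −1.198 (SE 0.49) and −1.17 (SE 0.36). Of the A-kinase list, 7 were positive and 8 negative, and only Akap6 reached that size (−1.12, SE 0.82). Over all genes 10.1% did.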

How the data were processed

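RNA was extracted from fresh frozen tumor tissue, depleted of ribosomal RNA and made into stranded libraries, per the labels. The submitters' processing notes name STAR 2.7.11, featureCounts 1.6.3 and the mm10 build. The authors deposited raw gene counts without normalization, in 1 table for the 37 hSS2 tumors and 1 for the 9 hSS1 tumors. The annotation release, strand setting and treatment of multimapped reads were not given in the sources used here. Symbols and coordinates were taken from GENCODE, and start sequences from RefSeq.

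Printed CPM are counts scaled by the plain library total. For tests, counts were filtered with filterByExpr, scaled by TMM and fitted with the edgeR quasi-likelihood test (edgeR 4.0.16, limma 3.58.1, R 4.3.3), with the 4 hSS2 groups in 1 fit and the hSS1 groups in another. P-values were adjusted by Benjamini-Hochberg over all genes tested, and a call is an adjusted p under 0.05. Intervals are normal 95% intervals of the fitted value. The alternatives were DESeq2 1.42.0, median-ratio scaling, no filter, controls of the same mouse number range and omission of each tumor, and the fit was tested on simulated data. Replicates are single tumors, and no replicate pair agreed within counting noise. Counting error was not separated from the spread between tumors for single genes. It weighs most where counts are low, as for Ccdc170 and, outside the hSS2 Pbrm1-fl tumors, for Iyd.

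The 10 genes and the lists were chosen with earlier results of these data known. By rule the text names the 10 genes, the targeted genes, called genes of the lists, and the 5 genes most like Iyd and most like Syne1 by Spearman's rho. The other list genes and the genes beside the stretch were named after their values were seen. Single values of some list genes are not reported here.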

Additional observations from a re-analysis of the deposited data

Results flagged for a closer look

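Of 50 gene and group combinations of 4 to 10 tumors, 5 had a highest or lowest tumor whose gap to the next was large beside the range of its group, where chance flags about 1 in 20 groups (about 2.5 here). Syne1 was 12.72 CPM in hSS1 Pbrm1-fl replicate 3, with the other 3 tumors at 236.5 to 314.2 CPM. Armt1 was 40.64 CPM in the same tumor against 26.51 to 27.96 CPM in the others. Mthfd1l was 42.63 CPM in hSS2 Pbrm1-fl replicate 3 against 24.5 to 29.64 CPM, and this tumor also had the most Iyd (187 CPM) and the least Syne1 (39.5 CPM) of its group. Mthfd1l was 54.15 CPM in hSS2 Arid1a-fl replicate 1 against 16.49 to 28.65 CPM, and this tumor also had the most Iyd (10.1 CPM) and the least Esr1 (2.40 CPM) of its group. Rmnd1 was 25.16 CPM in hSS2 Pbrm1-fl replicate 1 against 32.19 to 39.34 CPM, in the tumor of its group with the most Pbrm1 (134 CPM) and the highest muscle sum (17625 CPM). No explanation was tested for these values.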

How the results depend on the processing

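The number of the 10 genes called after Arid1a disruption, 1 with all tumors, was 2 with DESeq2 and at an adjusted p under 0.10, 0 without the filter on low counts and 0 against controls of the same mouse number range, and from 0 to 2 with single tumors left out. After Pbrm1 disruption in hSS1 it was 0 in the edgeR fits and 1 with DESeq2. The other 2 tested comparisons had no call under any alternative. Over all genes, Arid1a calls were 637, with 243 without the filter, 1405 against controls of the same range and 1740 with DESeq2. For Arid1b they were 11, 27 without the filter, 18 with DESeq2 and 0 against controls of the same range. For Arid1a against Arid1b they were 20, and 223 with DESeq2. For hSS1 they were 1, 1244 with DESeq2 and 0 against controls of the same range.

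The following log2 fold changes changed sign, and the cause was not tested. Against controls of the same mouse number range, Ccdc170 was 0.2225 after Arid1a disruption. After Arid1b disruption Iyd was −0.3905, Mthfd1l 0.1925, Zbtb2 −0.02666, Rmnd1 0.02234, Armt1 0.001104 and Ccdc170 −0.0676 in that setting. Armt1 between Arid1a-fl and Arid1b-fl was 0.01502 with median-ratio scaling, 0.003843 without the filter and 0.01605 with DESeq2. With single tumors left out, Mthfd1l ran from −0.2969 to 0.004366 for Arid1a, from −0.08449 to 0.3703 for Arid1a against Arid1b and from −0.3763 to 0.08884 in hSS1. Armt1 ran from −0.04185 to 0.04686 for Arid1a against Arid1b. For Arid1b, Zbtb2 ran from −0.03498 to 0.07393, Ccdc170 from −0.1555 to 0.353 and Syne1 from −0.1922 to 0.002. Syne1 in hSS1 ran from −0.4375, without Pbrm1-fl replicate 4, to 0.2689, without Pbrm1-fl replicate 3. None of these was called in any of these fits. The Iyd value in hSS2 Pbrm1-fl tumors was 6.89 with a prior count of 2 and the Syne1 value −1.73.

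No paired analysis was possible because the labels give only mouse numbers, which name no pairs across groups. Counts of 10 or fewer per control tumor limit every Iyd fold change. Genotype and mouse number range cannot be told apart without the few controls of each range.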
